A study of Homo sapiens with 9 samples.

Results

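The cell cycle is driven by cyclin-dependent kinases, and 10 of the genes behind it are described here across RKO cells: the D-type cyclins CCND1, CCND2 and CCND3, the E-type cyclins CCNE1 and CCNE2, the A-type cyclin CCNA2, the B-type cyclins CCNB1 and CCNB2, and the kinases CDK1 and CDK2. They were chosen by name, and every probe that the array design assigns to them was kept, which gave 13 probes of 50599 on the array and 10 of the 17741 gene names tested. RKO is a human colorectal cancer cell line with a CpG island methylator phenotype. Its total RNA was labelled in 1 colour for 9 arrays of Agilent's SurePrint G3 Human GE v2 design.

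All 9 arrays came from RKO cells. The 8 siRNA arrays fell into 4 groups of 2, and in each the cells carried an siRNA for 72 h and were then kept for another 24 h with ethanol as mock or with 300 nM trichostatin A (TSA), an inhibitor of histone deacetylases. The groups were control siRNA with mock (siCONT), siRNA against UHRF1 with mock (siUHRF1), control siRNA with TSA (siCONT + TSA) and siRNA against UHRF1 with TSA (siUHRF1 + TSA). UHRF1 is the factor that brings the maintenance DNA methyltransferase to newly replicated DNA. Replicate 1 of both depleted groups carried siUHRF1-1 and replicate 2 carried siUHRF1-2, a different siRNA, while both siCONT replicates carried the same control siRNA. A single further array held cells given 1 µM 5-aza-2'-deoxycytidine (5-aza-dC), an inhibitor of DNA methyltransferases, for 72 h without any siRNA. Depletion was transient, and each agent was given to 1 cell line, at 1 dose and for 1 length of time. The depleted replicates differ in their siRNA and so in their transfection. Nothing in the labels says that the replicates with control siRNA were separate cultures, and the spread between those arrays may be technical.

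D-type cyclins bind CDK4 and CDK6 and start the phosphorylation of the retinoblastoma protein in G1. E-type cyclins with CDK2 complete it at the entry to S phase, cyclin A2 works with CDK2 in S phase and with CDK1 in G2, and the B-type cyclins with CDK1 drive mitosis. Transcripts of the E2F-driven genes such as CCNE1 and CCNE2 peak around the G1/S border, while those of CCNB1, CCNB2, CCNA2 and CDK1 peak in G2 and mitosis, where the MuvB complex with B-MYB and FOXM1 acts on the CHR element of their promoters and NF-Y acts on CCAAT boxes. In bulk RNA, a smaller share of cells in a phase and less of a transcript in each cell cannot be told apart.

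The upstream sequences of CCNB1 and CCNB2 are shown because these genes rose together on the TSA arrays. They are the 250 bases before the annotated start, from RefSeq on GRCh38.p14, both on the plus strand: chr5:69166900-69167149 for CCNB1 and chr15:59104896-59105145 for CCNB2. Capitals mark CCAAT (or ATTGG on the other strand) and the CHR letters TTTGAA (or TTCAAA on the other strand) and TTTAAA, which reads the same on both strands.
CCNB1: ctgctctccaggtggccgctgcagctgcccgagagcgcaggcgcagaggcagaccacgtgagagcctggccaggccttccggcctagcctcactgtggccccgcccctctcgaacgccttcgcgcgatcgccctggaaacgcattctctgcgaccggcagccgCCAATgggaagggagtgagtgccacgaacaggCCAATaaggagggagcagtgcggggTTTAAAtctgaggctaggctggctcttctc
CCNB2: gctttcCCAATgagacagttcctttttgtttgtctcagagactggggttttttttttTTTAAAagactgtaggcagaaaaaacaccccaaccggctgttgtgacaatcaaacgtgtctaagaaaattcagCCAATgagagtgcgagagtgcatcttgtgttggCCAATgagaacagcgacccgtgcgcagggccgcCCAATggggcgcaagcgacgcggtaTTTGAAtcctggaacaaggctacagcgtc
In CCNB1 the CCAAT boxes began 87 and 55 bases before the start, and TTTAAA began 30 bases before it. In CCNB2 the last pair of CCAAT boxes began 87 and 54 bases before the start and TTTGAA 29 bases before it, with further CCAAT boxes at 244 and 120 and a TTTAAA at 193.

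Upstream sequences were at hand for 6 of the 10 genes, with 9 annotated starts. The first start of CDK1 had CCAAT at 150 bases, TTTGAA at 161 and TTTAAA at 131. Its second start had ATTGG at 78 and 46 bases and TTTGAA at 69 and 13 bases. CCNA2 had 1 ATTGG at 56 and none of the CHR letters as spelled above. The CCNA2 window does hold cttgaa, letters that were not searched for. CCNE1 had TTTAAA at 28 and no CCAAT box. None of the 3 starts of CCND3 had the CHR letters. Over all 35116 upstream windows of this length, 32% held a CCAAT box, 21.9% held the CHR letters, and 2.12% held at least 2 CCAAT boxes together with the CHR letters. A match is a description of letters and not of bound sites, and some windows of the same gene overlap.

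**Figure D1:**
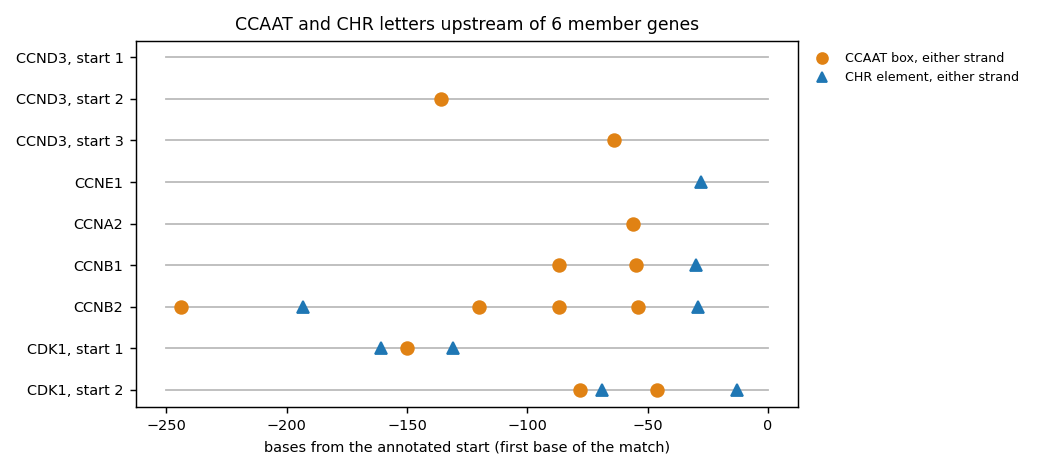
Positions of CCAAT boxes (circles) and CHR letters (triangles) in the 250 bases before each of 9 annotated starts of 6 genes, with distance from the start in bases on the x axis and 1 line for each start. CCNB1 and CCNB2 both have CCAAT boxes at 87 and about 55 bases and CHR letters at about 30 bases before the start.

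The scanner gave each spot a background-corrected signal, and a level below is that signal as a multiple of the 75th percentile of its own array. A difference is on the log2 scale of this level. This percentile ranged from 245 to 338 among the siRNA arrays and reached 822 with 5-aza-dC, and no spot was saturated. The median gap between the arrays of a group was 0.063 (log2) for siCONT, 0.068 for siCONT + TSA, 0.251 for siUHRF1 and 0.181 for siUHRF1 + TSA. The siRNA arrays shared 1 slide and 1 scan, with mock and TSA in different rows and siCONT and siUHRF1 in different columns, so position and treatment cannot be told apart. UHRF1 itself was at 6.44 and 6.45 on the siCONT arrays and at 1.28 and 1.05 on the siUHRF1 arrays, and at 7.31 and 7.28 against 0.791 and 0.65 with TSA. Of the reference genes, GAPDH differed by -0.04 in siUHRF1 + TSA against siCONT (adjusted p = 0.835) and the probes of ACTB by 0.01 and 0.36 (adjusted p = 0.954 and 0.114). With TSA in siCONT cells GAPDH differed by 0.08 (adjusted p = 0.659) and the same ACTB probes by -0.003 and 0.47 (adjusted p = 0.991 and 0.0839). In depleted cells TSA gave 0.09 for GAPDH (adjusted p = 0.6) and -0.03 and 0.40 for ACTB (adjusted p = 0.899 and 0.101). The second ACTB probe was thus higher on the TSA arrays, without a call.

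Of the epithelial markers, KRT8 and KRT18 were well above background on all 9 arrays, KRT19 on 3, EPCAM on 2 and CDH1 on 0. Of the colon markers, CDX2 was above background on all 9 and KRT20 on 2, whereas VIL1, CDH17 and LGALS4 were above it on 0. The leukocyte markers CD68, PTPRC and CD3E were above background on 9, 6 and 1 arrays, the fibroblast markers COL1A1, COL1A2 and DCN on 9, 3 and 2, and the endothelial markers VWF and PECAM1 on 7 and 0. Their part in the cyclin results was not tested. MKI67, PCNA and TOP2A, markers of proliferating cells, were above background on all 9.

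All 13 probes cleared the background in both replicates of 1 group or more and were tested. Calls were made with limma at an adjusted p (Benjamini-Hochberg, over the 23703 probes tested) below 0.05, with the brightest probe standing for its gene. Where arrays are said below to lie all above or all below others, this describes their levels. The share of all probes that separate in this way was not counted. Of the 10 genes, CCND3 was higher with UHRF1 depletion, CCNB1 and CCNB2 were higher with TSA, and CDK2 was lower in siUHRF1 + TSA than in either mock group. CCND1, CCND2, CCNE1, CCNA2 and the brighter probes of CCNE2 and CDK1 were called in none of the comparisons between siRNA arrays. With the siRNA and replicate as a random block, CCNE1 and CCNE2 were called lower with TSA in depleted cells, and CDK2 with TSA in siCONT cells. This block also pairs the control replicates by number, which the labels do not say were paired. Deviations from the group means correlated at 0.08 between siCONT and siCONT + TSA, and at 0.466 between the depleted groups.

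**Figure D2:**
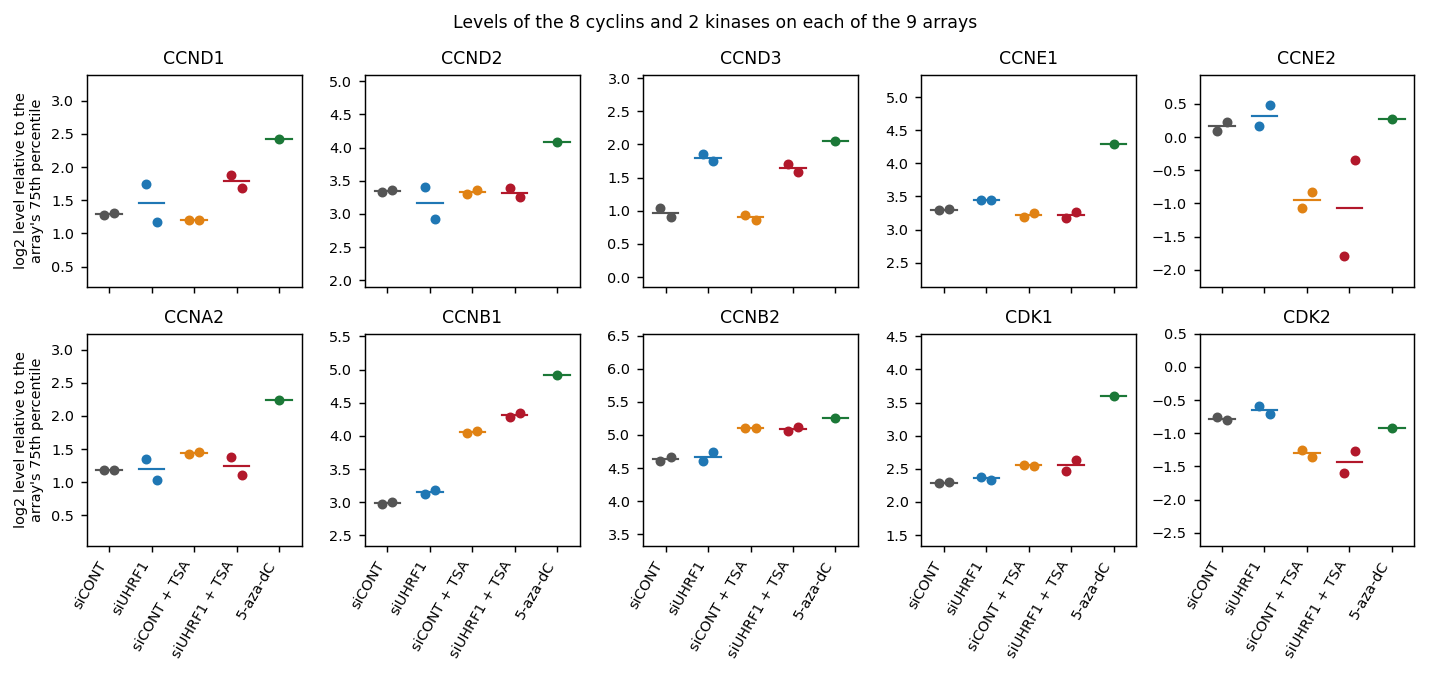
Log2 level relative to the 75th percentile of the array (y axis, each panel spanning the same range) of the brightest probe of each gene in the 5 groups, with a point for each array and a line at the group mean. CCND3 is raised on all 4 siUHRF1 arrays and CCNB1 on all 4 TSA arrays, and the siUHRF1 + TSA arrays of CCNE2 lie far apart.

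Cyclin D3 was the D-type cyclin that moved with UHRF1 depletion. The CCND3 probe (hg19 chr6:41903193-41903252, minus strand) was at 2.06 and 1.86 on the siCONT arrays, 3.62 and 3.36 on the siUHRF1 arrays, 1.92 and 1.81 on the siCONT + TSA arrays, and 3.25 and 3.01 on the siUHRF1 + TSA arrays. Every depleted array lay above every array with control siRNA, for both siRNAs and with or without TSA. The difference between siUHRF1 and siCONT was 0.83 (SE 0.105, adjusted p = 0.0379), a level 1.78-fold that of siCONT. Under TSA the difference between siUHRF1 + TSA and siCONT + TSA was 0.74 (adjusted p = 0.0173), and between siUHRF1 + TSA and siCONT it was 0.67 (adjusted p = 0.00804). TSA moved CCND3 by -0.07 in siCONT cells (95% interval -0.33 to 0.18) and by -0.16 in depleted cells (-0.41 to 0.10). The effect of depletion with TSA minus that without was -0.09 (95% interval -0.45 to 0.28). The siUHRF1 call was lost in each of 8 fits that left out 1 array, with differences of 0.76 to 0.90 and adjusted p from 0.0607 to 0.17, and it was lost with normexp background correction (0.79, adjusted p = 0.381) and spike-in scaling (0.86, adjusted p = 0.263) too. Under TSA the call was lost without either siCONT array, either siCONT + TSA array or siUHRF1 + TSA replicate 1 (adjusted p up to 0.143), and against siCONT the siUHRF1 + TSA call was lost without siCONT replicate 2 (0.60, adjusted p = 0.0747).

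CCND3 was the 1 of 10 genes called higher in siUHRF1 against siCONT, where 0.609% of all 17741 gene names were called higher and 0.0338% lower, and it was also the 1 gene past an unadjusted p of 0.05. It was the 1 gene called in siUHRF1 + TSA against siCONT + TSA too, where the shares over all gene names were 3.27% and 0.581%. There, 3 of the 10 passed an unadjusted p of 0.05, all higher. The median difference over the 10 genes was 0.14 in the former comparison and -0.0047 in the latter, beside -0.0014 and -0.0046 over all gene names. Among 12032 genes that could be ranked, those whose levels over the 8 siRNA arrays ran closest to CCND3 were AACSP1 (Pearson r = 0.989) and GIMAP2 (r = 0.978). All such correlations run over 4 groups of 2 arrays and mostly describe the steps between groups.

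CCND1, the D-type cyclin best known as a target of growth signals, differed between the siUHRF1 arrays. Its probe (chr11:69468233-69468292) was at 2.42 and 2.47 on the siCONT arrays, 3.36 with siUHRF1-1 and 2.24 with siUHRF1-2, 2.3 and 2.29 on the siCONT + TSA arrays, and 3.67 and 3.23 on the siUHRF1 + TSA arrays. Without TSA, the array with siUHRF1-1 was above both siCONT arrays and that with siUHRF1-2 below both. The gap between the siUHRF1 arrays was wider than that of 84.6% of the probes tested. Each siRNA was on 1 array without TSA, so a difference between siRNAs and one between arrays cannot be told apart. With TSA, both depleted arrays were above all 4 arrays with control siRNA. Its difference was 0.17 in siUHRF1 against siCONT (95% interval -0.30 to 0.63), 0.59 under TSA (SE 0.193, adjusted p = 0.192) and 0.49 in siUHRF1 + TSA against siCONT (adjusted p = 0.116), none of which was called.

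CCND2 (chr12:4414040-4414099) was at 10.02 and 10.3 on the siCONT arrays, 10.6 and 7.57 on the siUHRF1 arrays, 9.84 and 10.2 on the siCONT + TSA arrays, and 10.5 and 9.51 on the siUHRF1 + TSA arrays. The array with siUHRF1-2 was the lowest of the 8, and the other 7 lay close together. The difference in siUHRF1 + TSA against siCONT was -0.02 (95% interval -0.43 to 0.38), so changes beyond about this range were not seen at this precision. Over the 8 arrays CCND1 and CCND3 correlated at r = 0.675, and CCND2 correlated with CCND1 at r = 0.434.

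For both E-type cyclins, all 4 TSA arrays were below all 4 mock arrays, for CCNE1 by a small margin, and the genes correlated at r = 0.835 over the 8 arrays. CCNE1 (chr19:30315106-30315165) was at 9.79 and 9.93 on the siCONT arrays, 10.96 and 10.93 on the siUHRF1 arrays, 9.13 and 9.53 on the siCONT + TSA arrays, and 9.07 and 9.57 on the siUHRF1 + TSA arrays. The siUHRF1 pair was the highest, but the difference from siCONT was 0.15 (95% interval -0.06 to 0.36) and was not called. With TSA the difference was -0.08 in siCONT cells (95% interval -0.29 to 0.13) and -0.23 in depleted cells (-0.45 to -0.02; adjusted p = 0.127), and in siUHRF1 + TSA against siCONT it was -0.08 (-0.29 to 0.13). None of these was called by limma without a block, and that in depleted cells was called with the siRNA block (adjusted p = 0.0478).

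CCNE2 was measured with 2 probes on chromosome 8, each printed once on the array. The brighter was at 1.07 and 1.17 on the siCONT arrays, 1.12 and 1.39 on the siUHRF1 arrays, 0.478 and 0.564 on the siCONT + TSA arrays, and 0.289 and 0.785 on the siUHRF1 + TSA arrays. All 4 TSA arrays were below all 4 mock arrays, but the siUHRF1 + TSA arrays were 2.72-fold apart, a gap wider than that of 99.2% of the probes tested. The differences were -1.11 with TSA in siCONT cells (SE 0.433, adjusted p = 0.155), -1.39 with TSA in depleted cells (adjusted p = 0.0789) and -1.23 in siUHRF1 + TSA against siCONT (adjusted p = 0.0892). None of these was called, but with the siRNA block the difference in depleted cells was (adjusted p = 0.0232), and that in siCONT cells was not (adjusted p = 0.0534).

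The dimmer CCNE2 probe was at 0.0915 and 0.115 on the siCONT arrays and 0.123 and 0.125 on the siUHRF1 arrays. On the TSA arrays it was well above background on 1 of 2 arrays in each group, at 0.0739 and 0.0423 in siCONT + TSA and at 0.0537 and 0.056 in siUHRF1 + TSA. All TSA arrays were again below all mock arrays. Its difference with TSA was -1.17 in depleted cells (SE 0.261, adjusted p = 0.0335), which was called, and -0.88 in siCONT cells (adjusted p = 0.0846), which was not. In siUHRF1 + TSA against siCONT it was -0.90 (adjusted p = 0.0524).

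CCNA2 (chr4:122739995-122740054, minus strand) was at 2.26 and 2.26 on the siCONT arrays, 2.55 and 2.06 on the siUHRF1 arrays, 2.69 and 2.75 on the siCONT + TSA arrays, and 2.6 and 2.15 on the siUHRF1 + TSA arrays. The siCONT + TSA arrays were the highest pair, and in both depleted groups siUHRF1-1 was above siUHRF1-2. The difference with TSA was 0.26 in siCONT cells (SE 0.144, adjusted p = 0.28) and 0.05 in depleted cells (95% interval -0.30 to 0.40).

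Among the genes called on the siRNA arrays, CCNB1 had the largest differences. Its values come mainly from a 60-base probe that lies in the coding sequence and crosses a splice junction, since its ends are 1761 bases apart on hg19 (chr5:68471363-68473123). It was printed 10 times on each array.
CCNB1 probe: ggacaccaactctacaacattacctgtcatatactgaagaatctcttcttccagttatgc
It was at 7.82 and 8.02 on the siCONT arrays, 8.68 and 9.12 on the siUHRF1 arrays, 16.5 and 16.8 on the siCONT + TSA arrays, and 19.6 and 20.3 on the siUHRF1 + TSA arrays. The TSA arrays were far above the mock arrays with either siRNA, with no overlap, and in each pair of groups the depleted arrays were the higher. The difference with TSA was 1.07 in siCONT cells (SE 0.088, adjusted p = 0.00581) and 1.16 in depleted cells (adjusted p = 0.00174), and siUHRF1 + TSA against siCONT gave 1.33 (adjusted p = 0.00048), 2.51-fold. Depletion gave 0.17 without TSA (95% interval -0.04 to 0.38) and 0.26 with it (adjusted p = 0.202), neither called. These 3 calls were kept in all 8 fits that left out 1 array.

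A second CCNB1 probe (chr5:68473872-68473931) was at 3.31 and 3.21 on the siCONT arrays, 3.23 and 3.25 on the siUHRF1 arrays, 6.0 and 5.95 on the siCONT + TSA arrays, and 6.25 and 6.09 on the siUHRF1 + TSA arrays. It rose on every TSA array as well, by 0.87 in siCONT cells (adjusted p = 0.00863) and by 0.93 in depleted cells (adjusted p = 0.00297). For UHRF1 depletion it gave -0.01 without TSA and 0.05 with TSA, beside 0.17 and 0.26 for the first probe. The genes closest to CCNB1 over the 8 siRNA arrays were IFI6 (r = 0.998) and BEND3 (r = 0.997).

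CCNB2 (chr15:59417139-59417198) was at 24.3 and 25.5 on the siCONT arrays, 24.4 and 26.7 on the siUHRF1 arrays, 34.3 and 34.3 on the siCONT + TSA arrays, and 33.3 and 34.7 on the siUHRF1 + TSA arrays. All 4 TSA arrays were above all 4 mock arrays, and depletion did not separate the groups. The difference with TSA was 0.46 in siCONT cells (SE 0.094, adjusted p = 0.0336), 1.38-fold, and 0.41 in depleted cells (adjusted p = 0.0357). In siUHRF1 + TSA against siCONT it was 0.45 (adjusted p = 0.0201). Without any one of the siCONT and siCONT + TSA arrays all 3 calls were lost (adjusted p up to 0.222), the last also without siUHRF1 + TSA replicate 2, and the call in depleted cells was kept only without siUHRF1 replicate 2. The difference in siCONT cells was 0.26 with normexp (adjusted p = 0.32) and with spike-in scaling (adjusted p = 0.347). The genes closest to CCNB2 were TIMM10 and AKAP8 (r = 0.997 for both).

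CDK1, the kinase of the B-type cyclins, was measured with 2 probes that disagreed. The brighter lies in the coding sequence and crosses a splice junction (chr10:62552004-62553650 on hg19, 1647 bases for 60 bases of probe), and it was printed 10 times.
CDK1 probe: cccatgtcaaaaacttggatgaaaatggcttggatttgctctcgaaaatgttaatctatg
It was at 4.86 and 4.94 on the siCONT arrays, 5.21 and 5.05 on the siUHRF1 arrays, 5.87 and 5.84 on the siCONT + TSA arrays, and 5.55 and 6.23 on the siUHRF1 + TSA arrays. The TSA arrays were the 4 highest, by a small margin. The difference with TSA was 0.26 in siCONT cells (SE 0.097, adjusted p = 0.143) and 0.20 in depleted cells (adjusted p = 0.215), and neither was called. Over the 8 arrays this probe correlated with CCNB1 at r = 0.926 and with CCNB2 at r = 0.925, and CCNB1 and CCNB2 correlated at r = 0.973.

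The dimmer CDK1 probe (chr10:62546632-62546691), which the array design assigns to transcript variant 4, went the other way. It was at 0.0685 and 0.071 on the siCONT arrays and 0.0667 and 0.0822 on the siUHRF1 arrays, all well above background. On the TSA arrays it was not well above background, at 0.0311 and 0.0277 in siCONT + TSA and 0.0471 and 0.053 in siUHRF1 + TSA. It was at least 1.29-fold lower with TSA in siCONT cells and at least 1.42-fold lower with TSA in depleted cells. For these bounds, each TSA array was put at the lowest signal above background there or at its own signal if that was higher. The bounds themselves were not tested. Limma called the probe lower in both comparisons (adjusted p = 0.0103 and 0.0422), from signals that were below background on the TSA arrays. Its values in the 2 TSA groups are both below background and give no fold.

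**Figure D3:**
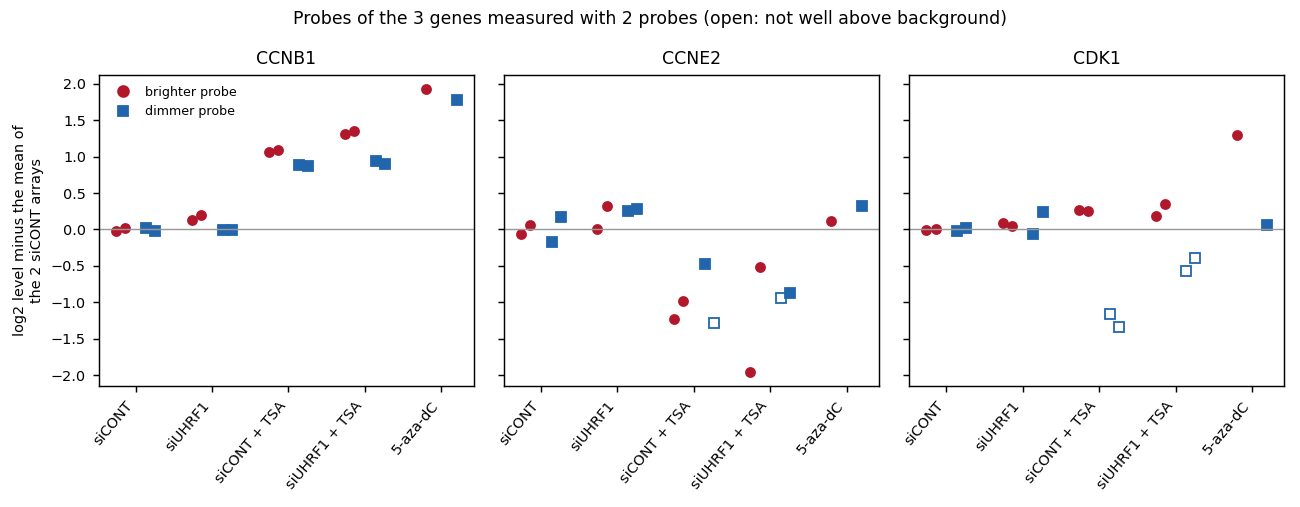
Log2 level minus the mean of the siCONT arrays (y axis) for both probes of CCNB1, CCNE2 and CDK1 in the 5 groups, with a point for each array, circles for the brighter and squares for the dimmer probe, and open symbols where a probe was not well above background. The probes of CCNB1 and of CCNE2 move the same way with TSA, whereas those of CDK1 move apart.

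CDK2, the kinase of the E-type cyclins and of cyclin A2, moved opposite to the B-type cyclins. Its probe (chr12:56365789-56365848) was at 0.591 and 0.571 on the siCONT arrays, 0.664 and 0.614 on the siUHRF1 arrays, 0.42 and 0.389 on the siCONT + TSA arrays, and 0.328 and 0.414 on the siUHRF1 + TSA arrays. All 4 TSA arrays were below all 4 mock arrays. The difference was -0.79 with TSA in depleted cells (SE 0.134, adjusted p = 0.0162) and -0.66 in siUHRF1 + TSA against siCONT (adjusted p = 0.0184), both called but not with normexp (adjusted p = 0.113 and 0.128). With TSA in siCONT cells it was -0.52 (adjusted p = 0.0603, or 0.0235 with the siRNA block), and depletion under TSA gave -0.13 (95% interval -0.46 to 0.19). The block's value in siCONT cells rests on pairing control replicates by number, which the labels do not say were paired. The call against siCONT was lost without either siCONT array and without siUHRF1 + TSA replicate 1 (adjusted p up to 0.115), and that against siUHRF1 without siUHRF1 replicate 1 (adjusted p = 0.0594).

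Over the 8 siRNA arrays CDK2 correlated with CCNE2 at r = 0.926, with CCNE1 at r = 0.863 and with CCNB1 at r = -0.932. The genes closest to CDK2 were DLC1 (r = 0.996) and FBXO5 (r = 0.988), of which FBXO5 encodes EMI1, an inhibitor of the anaphase-promoting complex.

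With TSA in siCONT cells, 2 of the 10 genes were called higher and 0 lower by limma, where 7.01% of all gene names were called higher and 3.88% lower. At an unadjusted p below 0.05 these counts were 3 and 2. In siUHRF1 + TSA against siUHRF1, 2 were higher and 1 lower, beside 10.8% and 5.48%, and with the siRNA block the counts were 2 and 3. In siUHRF1 + TSA against siCONT, 3 were higher and 1 lower, beside 16.1% and 8.08%, and the median difference was 0.16 beside 0.07 over all gene names. The comparisons share their siCONT or siUHRF1 + TSA arrays, so their counts are not separate evidence. The effect of depletion with TSA minus that without was called for 0 of the 10 genes, at an unadjusted p too, where 0.361% of gene names were called higher and 0.0282% lower. Its values ran from -0.29 for CCNE2 to 0.42 for CCND1. Beside these shifts, the 3 probes of MKI67 differed by 0.12, 0.22 and 0.22 with TSA in siCONT cells (adjusted p = 0.646, 0.587 and 0.382). The 3 probes of PCNA, the replication clamp, gave -0.57, -0.59 and -0.76 (adjusted p = 0.0511, 0.0334 and 0.018). TOP2A was at 2.24 and 2.28 on the siCONT arrays and at 2.07 and 2.09 on the siCONT + TSA arrays.

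**Figure D4:**
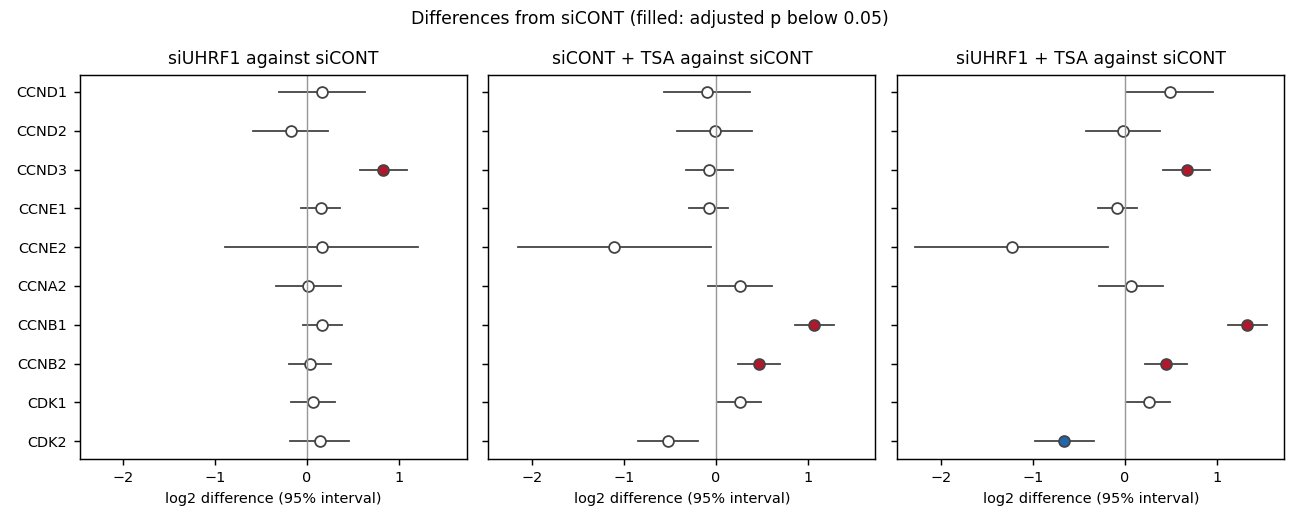
Log2 difference from siCONT (x axis) with its 95% interval for the brightest probe of each gene in siUHRF1, siCONT + TSA and siUHRF1 + TSA, with filled points at an adjusted p below 0.05. CCND3 is filled in both depleted groups, CCNB1 and CCNB2 in both TSA groups, and CDK2 in siUHRF1 + TSA, while the interval of CCNE2 is the widest of the 10.

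The genes that act on these cyclins and kinases were described with a list of 72 in 7 roles, of which 71 were tested on the siRNA arrays. In siUHRF1 + TSA against siCONT, 16 were higher and 8 lower, where 16.1% of all gene names were called higher and 8.08% lower, with a median difference of -0.06 beside 0.07 over all gene names. TSA in siCONT cells gave 8 higher and 2 lower, beside 7.01% and 3.88%. UHRF1 depletion without TSA gave 0 called by limma in either direction, where 0.609% of all gene names were called higher and 0.0338% lower. At an unadjusted p below 0.05 it gave 1 higher and 1 lower. Depletion with TSA gave 0 called too, beside 3.27% and 0.581%, and 8 higher and 9 lower at an unadjusted p below 0.05.

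Of 8 CDK inhibitor genes, 4 were higher and 0 lower in siUHRF1 + TSA against siCONT (4 and 1 at an unadjusted p below 0.05), beside the 16.1% and 8.08% of all gene names. CDKN2B, which encodes the CDK4 and CDK6 inhibitor p15, differed by 1.38 (adjusted p = 0.0214), CDKN1C, which encodes p57, by 1.22 (adjusted p = 0.00955), and CDKN3, which encodes a phosphatase that acts on CDK2, by 0.96 (adjusted p = 0.0232). CDKN1A, which encodes p21, was at 0.0094 in the same comparison (adjusted p = 0.964). Its differences with depletion were 0.42 without TSA (adjusted p = 0.33) and 0.44 with it (adjusted p = 0.124). With TSA they were -0.44 in siCONT cells (adjusted p = 0.0689) and -0.42 in depleted cells (adjusted p = 0.0636). None of these was called. Among 8 partner and activating kinases with their subunits, CKS2, a small subunit of CDK complexes, was higher by 0.86 (adjusted p = 0.00331) and CDK5 by 0.57 (adjusted p = 0.0275), and CDK6, a partner of the D-type cyclins, was lower at -0.79 (adjusted p = 0.0445).

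Of 5 phosphatases and kinases that switch CDK1 and CDK2 on and off, CDC25B was higher (0.52, adjusted p = 0.0134) and CDC25A (-0.60, adjusted p = 0.0306) and PKMYT1 (-0.60, adjusted p = 0.0335) were lower. CDC25B and CDC25A remove the inhibitory phosphates that PKMYT1 and WEE1 place. Among 13 pocket protein and E2F genes, RBL1, which encodes the pocket protein p107, was lower (-0.80, adjusted p = 0.0202), and E2F3 (0.62, adjusted p = 0.0167) and E2F6 (0.52, adjusted p = 0.0134) were higher. Of 7 genes of the DREAM and MMB complexes with FOXM1, LIN9 (-0.65, adjusted p = 0.015) and LIN54 (-0.64, adjusted p = 0.0206) were lower and 0 higher, also at an unadjusted p. All counts in this paragraph are for siUHRF1 + TSA against siCONT, where 16.1% of all gene names were called higher and 8.08% lower. LIN54 is the subunit that binds the CHR letters.

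Of 15 genes for cyclin destruction, 6 were higher and 1 lower, beside the same 16.1% and 8.08%. FZR1, the activator of the anaphase-promoting complex in G1, was higher by 1.12 (adjusted p = 0.00386), UBE2C, the ubiquitin-conjugating enzyme of that complex, by 0.89 (adjusted p = 0.00269) and CDC27, one of its subunits, by 0.78 (adjusted p = 0.0348). Of 16 other cyclins, CCNB3 was higher (1.03, adjusted p = 0.0108) and CCNG2 lower (-0.46, adjusted p = 0.0213), and CCNA1, the germline A-type cyclin, was not tested because no siRNA group had it above background on both arrays.

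The single 5-aza-dC array was set against siCONT with its spread assumed to be that of the other groups. Its treatment, the lack of transfection, the time of harvest, its slide and its scan cannot be told apart. Relative to the 75th percentile, 8 of the 10 genes were called higher and 0 lower, beside 25.5% and 23.8% of 20369 gene names, but scaling to the spike-in RNA, which lowers every gene's difference on this array by the same amount, put 7 of the 8 below siCONT. At an unadjusted p below 0.05 the counts relative to the 75th percentile were also 8 and 0. The median difference was 1.03 beside 0.06 over all gene names. With spike-in scaling, the median over all probes tested was -1.89 and that of the 10 genes -0.88. The place of a gene among the probes of the array cannot change with this scaling.

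CCNB1 had the largest difference of the 10 genes, at 30.2 on the 5-aza-dC array against 7.82 and 8.02 on the siCONT arrays. Its difference was 1.93 (SE 0.107, adjusted p = 7.45e-05) and that of its second probe 1.78, but 0.026 with spike-in scaling. CDK1 was at 12.1 by its brighter probe, a difference of 1.30 (adjusted p = 0.000488; -0.60 with spike-in scaling), and its dimmer probe was at 0.0726, a difference of 0.06 (adjusted p = 0.799). CCND1 was at 5.38 (difference 1.14), CCND3 at 4.15 (1.08), CCNA2 at 4.72 (1.06) and CCNE1 at 19.7 (1.00), each called, and with spike-in scaling their differences were -0.77, -0.82, -0.84 and -0.91. CCND2 at 17.0 (0.74) and CCNB2 at 38.1 (0.61) were called too, with -1.16 and -1.29 under spike-in scaling, and the call of CCND2 was lost without any one of the siCONT and siCONT + TSA arrays (adjusted p up to 0.0972). CCNE2 (0.11, adjusted p = 0.875) and CDK2 (-0.13, adjusted p = 0.541) were not called relative to the 75th percentile, and were at -1.79 and -2.04 with spike-in scaling.

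**Figure D5:**
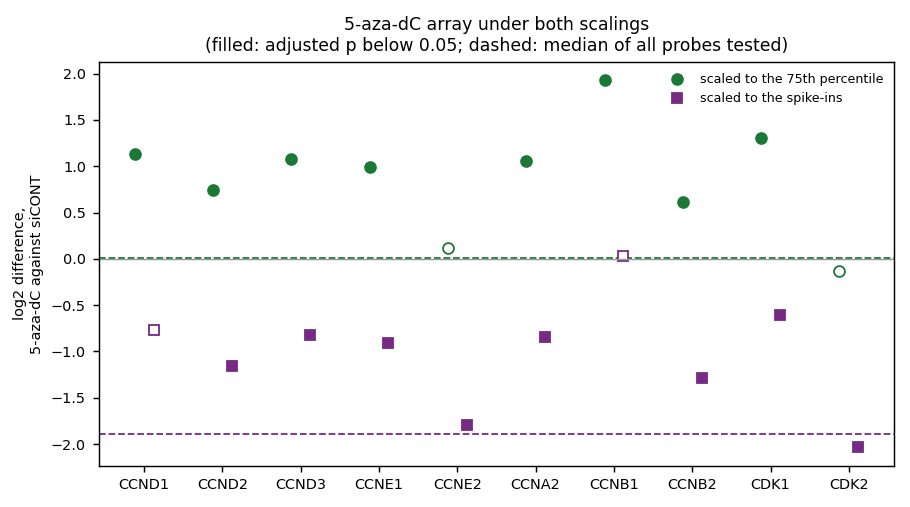
Log2 difference of the 5-aza-dC array from siCONT (y axis) for the 10 genes, scaled to the 75th percentile (circles) or to the spike-in RNA (squares), with filled points at an adjusted p below 0.05 and dashed lines at the median of all probes tested. The squares are the circles moved down by 1 shift common to all genes, which puts 7 of the 8 genes called higher below 0.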

How the data were processed

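Expression was measured on 9 Agilent arrays of RKO cells. The authors extracted the spots with Feature Extraction 10.7.3.1, and the deposited files hold its processed signal, a linear intensity after background subtraction and detrending that is not normalized between arrays. The authors' methods name GeneSpring GX for their own analysis. The array design gives probe positions on hg19. Upstream sequences came from RefSeq tables on GRCh38.p14.

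Log2 intensity was shifted by each array's 75th percentile over 58717 non-control spots. Spots marked as outliers were left out and spots of a probe averaged. A probe was above background when at least 0.5 of its spots were, and was tested when above background on every array of 1 group or more. Linear models with empirical Bayes moderation (limma 3.58.1, R 4.3.3) took in the 4 siRNA groups (8 arrays), or all 9 arrays where 5-aza-dC was compared, with Benjamini-Hochberg adjustment over all probes tested (23703 or 27142) and calls at 0.05. The fit was tested on simulated data. The number of arrays limits the precision. Shares over all gene names use the brightest tested probe.

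The text names every member and probe, the 2 genes closest to each gene called on the siRNA arrays, up to 3 called genes per role of the pathway list, and UHRF1, ACTB and GAPDH as checks. CDKN1A, CCNA1, MKI67, PCNA and the levels of TOP2A were added after their values were seen. The members, lists and tests were chosen with earlier results of these data known. The alternatives changed the background correction (normexp, offset 50), the scaling (quantiles, the median of bright probes, or spike-in RNA), the filter on dim probes (dropped or made stricter), the outlier spots (kept), the source of values (the deposited value table), the model (a replicate block, a trended and robust prior, fewer groups, 1 array less), the probe standing for a gene (any), and the test (unadjusted p, or the methods' t-test). All siRNA arrays share 1 slide and 1 scan, so no block for these could be fitted. Replicates of the same number in the 2 depleted groups share their siRNA by the labels, and their deviations from the group means correlated at 0.466. In the other pairs of groups the correlations ran from -0.0473 to 0.0796. The fit without a block was kept, and the values with siRNA and replicate as a random block stand beside the results whose call they change. Arrays of other cell lines were not analysed here.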

Additional observations from a re-analysis of the deposited data

How the results depend on the processing

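Counts of the 10 genes called are given in the order siUHRF1, siCONT + TSA and siUHRF1 + TSA against siCONT, siUHRF1 + TSA against siCONT + TSA, and siUHRF1 + TSA against siUHRF1, where the report has 1, 2, 4, 1 and 3. Normexp background correction gave 0, 1, 2, 0 and 1. Spike-in scaling gave 0, 1, 2 and 0 for the first 4. Using only the arrays compared gave 0 for siUHRF1, 6 for siCONT + TSA, 0 for siUHRF1 + TSA against siCONT + TSA and 1 for the last. The methods' t-test with Benjamini-Hochberg adjustment gave 0, 4, 0, 0 and 0. An unadjusted p below 0.05 gave 5, 7, 3 and 5 from the second on, and with a 2-fold change required it gave 0 for siUHRF1, 2 for siUHRF1 + TSA against siCONT, 0 against siCONT + TSA, and 5 for 5-aza-dC, which had 8. Quantile normalization gave 1 for siCONT + TSA. No filter on dim probes gave 0 for siUHRF1 and 1 for siCONT + TSA, and the stricter filter 0 for siUHRF1. Counting any probe of a gene gave 2 and 5 for the last 2 comparisons. Both gained a call of the dimmer CDK1 probe (adjusted p = 0.0402 in the former), and the latter also gained the dimmer CCNE2 probe. This CDK1 probe was below background on all 4 arrays compared in the former and on both TSA arrays in the latter. Counting any probe also added it in siCONT + TSA against siCONT (adjusted p = 0.0103), where it was below background on both TSA arrays.

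Leaving out 1 array gave 0 for siUHRF1 whichever was left out. It gave 1 to 4 for siCONT + TSA (1 without any one siCONT or siCONT + TSA array, 4 without either siUHRF1 + TSA array), 1 to 5 for siUHRF1 + TSA against siCONT (1 without siCONT replicate 2, 2 without siCONT replicate 1), 0 to 2 against siCONT + TSA (2 without either siUHRF1 array, 1 without siUHRF1 + TSA replicate 2, otherwise 0) and 2 to 3 against siUHRF1. A random replicate block within each siRNA (correlation 0.421), which treats the numbers of the control siRNA as pairs too, gave 5 for siUHRF1 + TSA against siUHRF1 by adding CCNE1 and CCNE2, and 3 for siCONT + TSA by adding CDK2. A fixed replicate block changed no call of the 10 genes among the siRNA arrays. The count for the difference between the effects of depletion was 0 in every alternative run. The cause of these shifts was not tested, except that fits with fewer arrays have fewer to estimate the spread from.

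CCNB1 kept its calls in 21 of 21, 19 of 20 and 20 of 21 alternatives for siCONT + TSA against siCONT, siUHRF1 + TSA against siCONT and siUHRF1 + TSA against siUHRF1, and the methods' t-test made the exceptions (adjusted p = 0.0509 and 0.267). CCND3 lost its call in 14 of 20 for siUHRF1 against siCONT (differences from 0.76 to 0.90), in 9 of 20 for siUHRF1 + TSA against siCONT + TSA (adjusted p up to 0.209) and in 3 of 20 for siUHRF1 + TSA against siCONT (differences down to 0.50). CDK2 kept its calls in 14 of 20 and 17 of 21, and CCNB2 in 13 of 21, 12 of 20 and 8 of 21.

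With 5-aza-dC, spike-in scaling turned the differences of CCND1 (-0.77), CCND2 (-1.16), CCND3 (-0.82), CCNE1 (-0.91), CCNA2 (-0.84), CCNB2 (-1.29) and CDK1 (-0.60). The number of arrays, and for the dimmer probes of CCNE2 and CDK1 the background, limit the precision.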
